A study of Mus musculus with 6 samples.

Results

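The genes described here encode the cytokine subunits of the interleukin-12 family and 3 further interleukins, namely Il12a, Il12b, Il23a, Ebi3, Il6, Il10 and Il16. They were taken as a list of symbols from the annotation of the array, and each was represented by the probe set with 1 symbol that had the highest mean over the 6 arrays. All 7 had a probe set, out of 12393 genes in all. Expression was measured on Affymetrix 3′ arrays in conventional dendritic cells (DCs), the antigen-presenting cells that start T cell responses, purified by cell sorting on CD11c from the spleens and the lymph nodes of BALB/c mice, an inbred strain. There were 3 arrays labelled spleen and 3 labelled lymph node, and the labels name no treatment, age or allele. They also do not say whether arrays came from separate animals, pools or cultures, so the p-values speak of array-to-array spread, part or all of which may be technical.

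DCs pass information to T cells partly through these secreted proteins. Il12b encodes p40, the subunit shared by IL-12, where it pairs with the p35 product of Il12a, and by IL-23, where it pairs with the p19 product of Il23a. IL-12 drives T cells and NK cells to make interferon-gamma, and IL-23 sustains T cells that make IL-17. Ebi3 encodes a p40-like subunit that pairs with the product of Il27 in IL-27 and with p35 in IL-35. IL-6 acts through its receptor and the shared chain gp130, IL-10 restrains myeloid cells, and IL-16 is cut from a precursor protein and binds CD4. A bulk array cannot tell fewer cells of a type from less RNA per cell.

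The control region upstream of a start site is shown for the 3 genes whose arrays did not overlap between the groups. Each run holds the 250 bases before a start that RefSeq annotates on build GRCm38.p6, read 5′ to 3′ on the gene's strand, and capitals mark matches to 1 of 5 short motifs searched on both strands. The stretches lie at chr5:30012864-30013113 on the plus strand for Il6, at chr11:44399813-44400062 on the plus strand for Il12b and at chr7:83655496-83655745 on the minus strand for Il16. The last is 1 of 3 annotated Il16 starts and is shown because it holds a kappaB half-site match.
Il6: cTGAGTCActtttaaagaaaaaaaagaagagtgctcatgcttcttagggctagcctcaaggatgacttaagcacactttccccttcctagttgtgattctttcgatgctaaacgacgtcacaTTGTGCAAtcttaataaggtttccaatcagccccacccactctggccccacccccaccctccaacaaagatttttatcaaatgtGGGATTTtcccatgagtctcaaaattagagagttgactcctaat
Il12b: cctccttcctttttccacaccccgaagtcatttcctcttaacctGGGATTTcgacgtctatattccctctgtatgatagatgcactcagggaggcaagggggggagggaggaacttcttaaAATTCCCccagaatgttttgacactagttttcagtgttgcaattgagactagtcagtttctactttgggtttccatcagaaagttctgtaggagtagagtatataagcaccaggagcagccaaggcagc
Il16: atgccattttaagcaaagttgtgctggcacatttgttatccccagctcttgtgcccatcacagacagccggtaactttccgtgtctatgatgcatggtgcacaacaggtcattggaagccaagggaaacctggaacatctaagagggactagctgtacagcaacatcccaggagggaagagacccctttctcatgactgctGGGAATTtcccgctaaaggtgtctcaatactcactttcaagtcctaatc

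The Il6 stretch held 3 matches. They were an AP-1 motif (TGANTCA) 249 to 243 bases before the start, a C/EBP motif (TTGNGNAA) 128 to 121 bases before it and a half-site of the NF-kappaB element (GGGANTT), called kappaB here, 44 to 38 bases before it. The Il12b stretch held 2 kappaB half-sites, 206 to 200 bases before the start and, on the opposite strand, 129 to 123 bases before it. The Il16 stretch held 1 at 49 to 43 bases before the start, and another Il16 start had an AP-1 match 18 to 12 bases before it. Il12a, on chromosome 3, held a kappaB half-site 94 to 88 bases before 1 of its 2 annotated starts, and no letters of the 5 motifs were found before the start of Ebi3, on chromosome 17. Of 32817 RefSeq stretches of the same length, 14.4% held the kappaB half-site, 6.75% the AP-1 motif and 11.7% the C/EBP motif. The other motifs searched were PU.1 (GAGGAAG, in 10.6% of stretches) and the TATA box (TATAAA, 12.4%), which were found in none of these windows. The half-site replaced a longer kappaB motif, searched first, which had matched Il6 and the Il16 start shown but neither Il12b, Il12a nor Ebi3, and an IRF motif in that first search had matched no member. The looser half-site was taken with those matches known, so its matches in Il12b and Il12a rest on that choice. No match overlapped another, and a match is a run of letters, not a measured binding site. Promoters of 5 of the 7 genes were in the RefSeq table, and Il23a and Il10 were not listed there.

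Before the results, the labels were set against marker genes. In 9 of the 9 conventional DC markers the arrays labelled spleen were lower without overlap, against 1570 of all 12393 genes. Of the 9 markers, 2 passed limma's adjusted p of 0.05 as lower (1.37% of all genes did). Itgax, which encodes CD11c, was measured at 856.1 to 1151.7 intensity units in the arrays labelled spleen and 1845.0 to 2006.3 in those labelled lymph node. A further list held 10 genes of migratory and mature DCs, a state known from DCs that reach lymph nodes. Of these, 6 passed limma's adjusted p of 0.05 as higher with the spleen label (2.03% of all genes did) and 0 as lower. From that known state alone, the arrays labelled lymph node would have been the higher ones. Whether the labels are right was not tested. Groups are therefore named as labelled, and every direction given here depends on the labels. The summed level of 7 markers of the CD8 lineage of DCs (cDC1) was 2831.7 to 6330.2 units in the arrays labelled spleen and 976.4 to 2447 in those labelled lymph node, with 0 called by limma. That of 8 markers of the CD11b lineage (cDC2) was 1804.9 to 2659.9 in the arrays labelled spleen and 3298.4 to 3838.4 in those labelled lymph node, with 1 called higher and 2 lower. Neither sum overlapped between the groups. The levels of Il12b, Il6, Il16, Irf8, Irf4 and Batf3 given below did not overlap either, as in 24.5% of all genes. Batf3, a cDC1 marker, was lower with the spleen label, and the other probe set of Il12b and of Il16 overlapped. Plasmacytoid DC markers were also higher with the spleen label (3 of 8, 0 lower). Their summed level in arrays 1, 2 and 3 labelled spleen was 1929.9, 1580.9 and 5177.8 units. In arrays 1, 2 and 3 labelled lymph node it was 814.2, 789.4 and 1237.8, so array 3 was the highest of each group. The sum of 8 neutrophil markers was 87.2 to 162.8 in the arrays labelled spleen and 204.7 to 768.9 in those labelled lymph node (0 called higher, 1 lower). That of 8 B cell markers was 442.1 to 742.0 in the arrays labelled spleen and 817.8 to 1304 in those labelled lymph node. Of these 8, limma called 0 higher and 2 lower, Cr2 and Cd22, while 2 had positive differences, Cd79b and Ms4a1. Ighm and Cd22 had the highest levels with the lymph node label, and 3 of the 11 Ighm probe sets shared its sign. The sums of 9 macrophage, 8 T cell, 7 NK cell and 6 plasma cell markers overlapped between the groups. Array medians were 39.4 to 41.3. The bacterial poly-A controls averaged 8.41 to 9.06 log2 units in the arrays labelled spleen and 7.39 to 7.96 in those labelled lymph node. The 3′ to 5′ ratio of the Gapdh control probe sets was 8.79 to 10.9 in the arrays labelled spleen and 6.06 to 6.89 in those labelled lymph node. The part of these markers and controls in the results below was not tested.

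None of the 7 cytokine genes differed between the groups at an adjusted p of 0.05 in limma, where 3.4% of all genes did. At an unadjusted p under 0.05 limma gave 4 of the 7, namely Il12a, Il12b, Il6 and Il16, against 19% of all genes. The arrays of the groups did not overlap for 3 of the 7, Il12b and Il6 with the arrays labelled spleen above and Il16 with them below, against 24.5% of all genes. The median log2 difference of the 7, as spleen minus lymph node, was 0.18, and that of all genes was -0.0053. By the 95% intervals, which are not adjusted for the number of genes, Il12a, Il12b and Il6 had positive differences and Il16 a negative one. The intervals of Il23a, Ebi3 and Il10 span 0, as do those of the dimmer Il12b and Il16 probe sets described below.

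The files hold no detection calls, so nearness to background was judged from levels. Il23a, Il6 and Il10 had means under 4 log2 units in both groups, where a bacterial control transcript that the samples lack averaged 2.01 to 2.20. Il12a lay above that limit in the arrays labelled spleen, but under 6.26, the level of Prm1, a sperm protamine gene that was the third highest of 21 genes of other tissues. Only Il12b, Ebi3 and Il16 were above both limits, and Il12b was close to the second in the arrays labelled lymph node. A fold for a gene under these limits has an uncertain size.

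**Figure D1:**
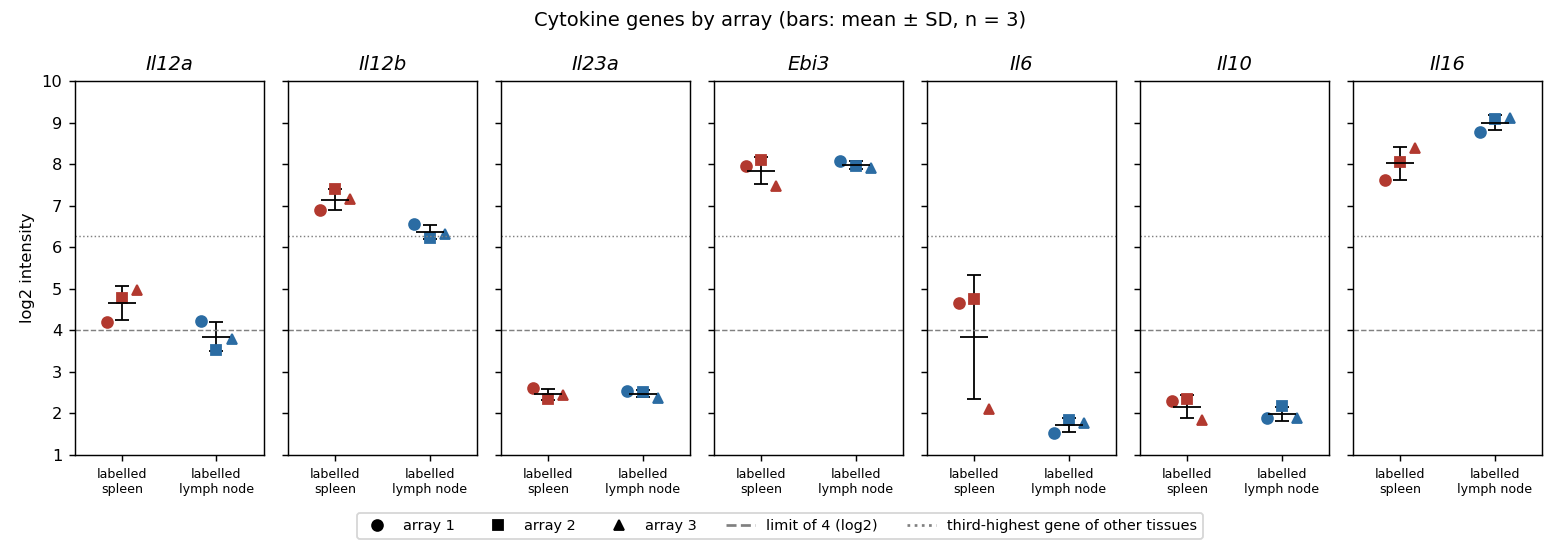
Log2 intensity of the 7 cytokine genes in each array, with those labelled spleen left and those labelled lymph node right in each panel. Points are arrays, bars are the mean ± SD (n = 3), and the dashed and dotted lines stand at 4 and 6.26 log2 units. Il23a and Il10 sit under the dashed line in all 6 arrays, 2 Il6 arrays labelled spleen stand above it, and Il16 is lower in the arrays labelled spleen without overlap.

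Il12b, the p40 subunit shared by IL-12 and IL-23, was measured at 118.7, 167.8 and 142.0 intensity units in the arrays labelled spleen, against 94.1, 74.2 and 80.3 in those labelled lymph node. Every array labelled spleen was above every array labelled lymph node. The mean was 7.14 ± 0.25 log2 units in the arrays labelled spleen and 6.37 ± 0.17 in those labelled lymph node (SD, n = 3 each), a 1.72-fold difference (log2 0.78 ± 0.19 SE, 95% interval 0.34 to 1.22) that did not pass in limma (adjusted p = 0.0703). A second, dimmer Il12b probe set read 59.3, 56.8 and 19.7 units in the arrays labelled spleen and 47.2, 31.2 and 23.7 in those labelled lymph node. There the groups overlapped, because array 3 labelled spleen was the lowest of the 6, and the difference was 0.31 ± 0.45 (SE, adjusted p = 0.783 in limma over all probe sets). With the mean of both probe sets the Il12b difference was 0.54 (adjusted p = 0.329 in limma).

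Il12a, the p35 subunit, was measured at 18.3, 27.6 and 31.5 units in the arrays labelled spleen and at 18.6, 11.5 and 13.8 in those labelled lymph node. The groups overlapped through array 1 of each. The difference was 0.81 ± 0.26 log2 units (SE, 95% interval 0.20 to 1.42; adjusted p = 0.148 in limma), from levels below that of the protamine gene, and was 0.44 (adjusted p = 0.186) once 16 units were added to each value before the log.

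Il23a, the p19 subunit of IL-23, was measured at 6.1, 5.1 and 5.4 units in the arrays labelled spleen and at 5.8, 5.7 and 5.2 in those labelled lymph node. All 6 values were near background and the groups overlapped throughout, with a difference of -0.011 ± 0.16 (SE, 95% interval -0.37 to 0.35; adjusted p = 0.979 in limma). At this level a difference in Il23a was not detectable, which does not show that the cells were alike.

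Ebi3, the subunit of IL-27 and IL-35, was well above both limits, at 246.9, 274.4 and 177.7 units in the arrays labelled spleen against 269.4, 248.0 and 238.8 in those labelled lymph node. The groups overlapped, and array 3 labelled spleen was the lowest. The difference was -0.14 ± 0.20 (SE, adjusted p = 0.783 in limma), with a 95% interval of -0.60 to 0.33, and its sign turned without that array (0.048). Il27, whose product is the partner of Ebi3 in IL-27, had no probe set with 1 symbol and was not analysed here.

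Il6 was measured at 25.1, 27.1 and 4.3 units in the arrays labelled spleen, against 2.9, 3.6 and 3.4 in those labelled lymph node. Arrays 1 and 2 labelled spleen stood far above the other 4, while array 3 labelled spleen lay just above the lymph node values. The mean was 3.84 ± 1.50 log2 units in the arrays labelled spleen and 1.72 ± 0.16 in those labelled lymph node (SD, n = 3 each), a difference of 2.12 ± 0.64 (SE, 95% interval 0.63 to 3.61) that did not pass in limma (adjusted p = 0.122). Without array 3 labelled spleen the Il6 difference was 2.99 and passed (adjusted p = 0.00240 in limma), and with any other array left out it did not pass (adjusted p up to 0.336). The values of the arrays labelled lymph node lie at the bottom of the scale, and once 16 units were added to each value before the log the Il6 difference was 0.77 (adjusted p = 0.229 in limma).

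Il10 was measured at 4.9, 5.1 and 3.6 units in the arrays labelled spleen and at 3.7, 4.5 and 3.7 in those labelled lymph node. The groups overlapped at background level, with a difference of 0.18 ± 0.19 (SE, 95% interval -0.27 to 0.63; adjusted p = 0.686 in limma). As with Il6 and Ebi3, the lowest of the arrays labelled spleen was array 3. Of the 7 cytokine genes, the lowest was array 3 for 3, array 1 for 3 and array 2 for 1.

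Il16, the cytokine that binds CD4, differed in the other direction. It was measured at 195.1, 264.5 and 337.6 units in the arrays labelled spleen, against 440.6, 545.0 and 553.0 in those labelled lymph node. The groups did not overlap, with a mean of 8.02 ± 0.40 log2 units in the arrays labelled spleen and 8.99 ± 0.18 in those labelled lymph node (SD, n = 3 each). The difference of -0.98 ± 0.23 (SE, 95% interval -1.51 to -0.44), or 1.97-fold lower, missed the threshold (adjusted p = 0.0640 in limma). Without array 3 labelled spleen it was -1.17 and passed (adjusted p = 0.0383 in limma). With any other array left out it did not pass (adjusted p 0.109 to 0.233 in limma).

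The other Il16 probe set read 179.8, 225.2 and 233.0 units in the arrays labelled spleen and 195.4, 249.6 and 276.7 in those labelled lymph node, with overlap between the groups. Its difference was -0.17 ± 0.20 (SE, 95% interval -0.63 to 0.29; adjusted p = 0.714 in limma over all probe sets), and the mean of both probe sets gave -0.57 (adjusted p = 0.172 in limma). The brighter probe set exceeded the dimmer one by 0.29 ± 0.22 log2 units in the arrays labelled spleen and by 1.10 ± 0.09 in those labelled lymph node (SD, n = 3 each), without overlap. For Il12b the same gap, as spleen minus lymph node, differed by 0.47, with overlap between the groups. The gaps were not tested between the groups. The annotation gives both probe sets of each gene the same sequence record and does not say which transcripts each probe set detects.

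**Figure D2:**
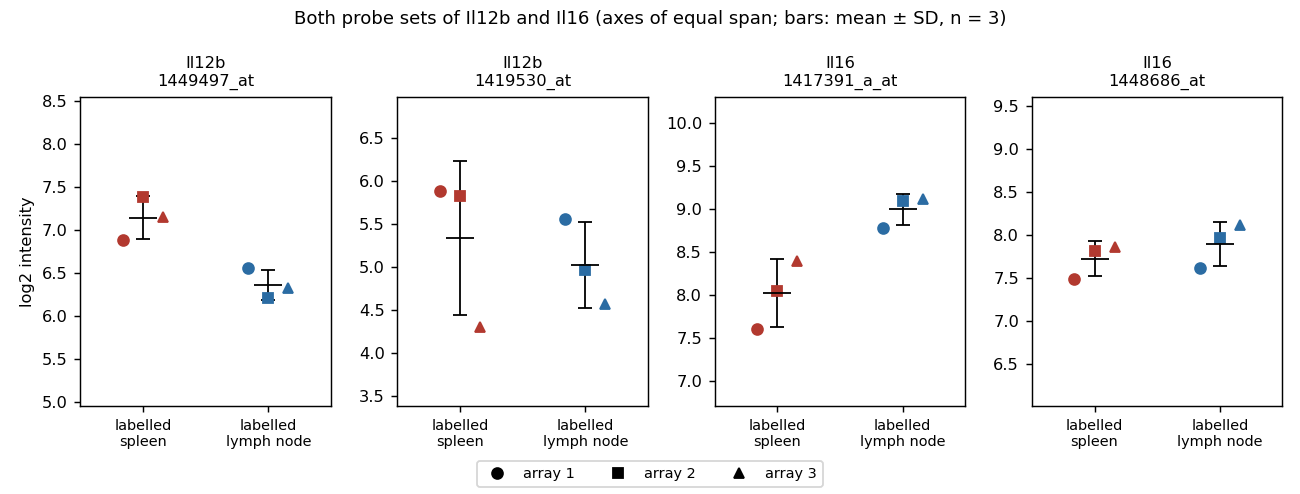
Log2 intensity of both probe sets of Il12b and of Il16 in each array, with those labelled spleen left, on axes of equal span; bars are the mean ± SD (n = 3). The groups separate in the brighter probe set of each gene, at left in each pair, and overlap in the dimmer one.

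The receptors of these cytokines were described as a list of 10 genes, 9 of them measured. In limma 0 were higher and 2 lower with the spleen label, against 2.03% of all genes higher and 1.37% lower, and the median log2 difference was -0.53. Il10ra, the ligand-binding chain of the IL-10 receptor, was measured at 106.2, 133.1 and 102.0 units in the arrays labelled spleen, against 359.7, 398.2 and 314.5 in those labelled lymph node. It was lower in every array labelled spleen, by 3.15-fold (log2 -1.66 ± 0.18 SE, adjusted p = 0.00653 in limma), and all 3 of its probe sets had that sign. With the poly-A control level as a covariate, a setting added after seeing the data, the Il10ra difference was -1.18 ± 0.40 (SE). It did not pass (adjusted p = 0.880 in limma), nor did any other gene named here. The control level did not overlap between the groups, so that setting cannot tell the controls from the label. The partner chain of Il10ra, Il10rb, differed by -0.14 ± 0.22 (SE, adjusted p = 0.803 in limma).

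Il6ra, the IL-6 receptor chain, was measured at 270.0, 325.3 and 309.2 units in the arrays labelled spleen, against 547.7, 571.3 and 597.3 in those labelled lymph node. It was 1.90-fold lower without overlap (log2 -0.93 ± 0.15 SE, adjusted p = 0.0264 in limma), in both of its probe sets. Its call was lost without array 1 labelled spleen (adjusted p = 0.0760) or without array 1 (0.118), 2 (0.124) or 3 (0.0627) labelled lymph node. Il6st, which encodes gp130, was measured at 770.7 to 897.0 units in the arrays labelled spleen and 997.7 to 1670.4 in those labelled lymph node (difference -0.51, adjusted p = 0.276 in limma).

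Among the IL-12 receptor chains, Il12rb2 was measured at 65.9, 58.4 and 54.3 units in the arrays labelled spleen, against 123.3, 81.3 and 100.8 in those labelled lymph node. The groups did not overlap, but the difference of -0.76 ± 0.20 (SE) did not pass in limma (adjusted p = 0.0837). Il12rb1, the chain shared with the IL-23 receptor, differed by 0.28 (adjusted p = 0.416 in limma) at 14.8 to 21.5 units over the 6 arrays. Il27ra differed by 0.60 (adjusted p = 0.457 in limma), and Cd4, the IL-16 receptor, by -0.53 (adjusted p = 0.442 in limma). Il23r had no probe set with 1 symbol.

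Of 11 measured genes of signalling below these receptors 1 was higher in the arrays labelled spleen and 0 lower, with a median of 0.37, against 2.03% of all genes higher and 1.37% lower. It was Socs3, the feedback inhibitor that binds gp130, at 108.5, 79.8 and 125.2 units in the arrays labelled spleen against 15.1, 16.5 and 24.2 in those labelled lymph node. The brightest probe set of Socs3 was 5.64-fold higher (log2 2.50 ± 0.25 SE, adjusted p = 0.00550 in limma), 2 of its 3 probe sets had that sign, and the mean of them gave 1.38 (adjusted p = 0.0253 in limma). Its mean with the lymph node label, 4.19 log2 units, was under the limit of 6.26, so the size of the fold is uncertain. Once 16 units were added to each value before the log, the Socs3 difference was 1.79 (adjusted p = 0.0186 in limma). Pias3, an inhibitor of Stat3, was measured at 105.9, 71.0 and 88.2 units in the arrays labelled spleen and at 46.9, 54.5 and 46.8 in those labelled lymph node, without overlap, but did not pass (adjusted p = 0.0630 in limma) and differed in sign between its 2 probe sets. The phosphatase gene Ptpn6 (difference -0.98, adjusted p = 0.0802 in limma) and Stat5a (0.67, adjusted p = 0.126) did not pass either. For their roles, the STAT genes of these cytokines were also read. Stat3, which carries IL-6 and IL-10 signals, differed by 0.37 (adjusted p = 0.301 in limma). Stat4, which carries the IL-12 signal, was measured at 308.4, 124.3 and 114.5 units in the arrays labelled spleen and at 75.8, 69.3 and 85.5 in those labelled lymph node, and did not pass (difference 1.10, adjusted p = 0.154 in limma).

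Of the 6 measured relatives in the IL-6 and IL-10 families 0 were higher and 1 was lower with the spleen label, with a median of 0.13, against 2.03% of all genes higher and 1.37% lower. Clcf1, a cytokine that signals through gp130, was measured at 225.4, 361.4 and 337.1 units in the arrays labelled spleen, against 659.5, 699.7 and 926.6 in those labelled lymph node. It was 2.50-fold lower (log2 -1.32 ± 0.23 SE, adjusted p = 0.0316 in limma), in all 3 of its probe sets. The call was lost without array 1 labelled spleen (adjusted p = 0.0737) or without array 1 (0.108), 2 (0.121) or 3 (0.0710) labelled lymph node. Il11, Lif, Ctf1, Il20 and Il24 had means under 4 log2 units in both groups.

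Transcription factors known to act on these cytokine genes were described as a list of 20, of which 19 were measured. In limma 1 was higher and 0 lower with the spleen label, against 2.03% of all genes higher and 1.37% lower, and the median was -0.19. Ets2, an ETS-family factor, was measured at 227.7, 161.1 and 63.1 units in the arrays labelled spleen, against 23.8, 14.3 and 31.3 in those labelled lymph node. It was 6.01-fold higher (log2 2.59 ± 0.48 SE, adjusted p = 0.0351 in limma), a call lost without any 1 array other than array 3 labelled spleen (adjusted p 0.0527 to 0.139) and with log2 of the value plus 16 (0.0756).

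The remaining factors did not pass. Spi1, which encodes the myeloid factor PU.1, came closest with -1.37 ± 0.30 (SE, adjusted p = 0.0549 in limma), from 61.7 to 113.1 units in the arrays labelled spleen and 162.9 to 311.1 in those labelled lymph node. Batf3 (-1.05, adjusted p = 0.0920 in limma), a factor of the CD8 lineage of DCs, and Irf4 (-0.79, adjusted p = 0.115), a factor of the CD11b lineage, had groups that did not overlap. Among the 7 measured cDC1 markers, which include Batf3 and Irf8, Batf3 was the one with a negative difference: Xcr1 (1.14), Cd8a (1.57), Itgae (1.18), Tlr3 (1.24), Cadm1 (1.56) and Irf8 had positive ones, with a median of 1.24 over the list, and none passed in limma. The next genes are given for their role, whatever their values. The NF-kappaB subunits Rel, Rela, Relb and Nfkb2 differed by -0.51, -0.27, -0.40 and -0.19, with overlap between the groups in each. Irf8, which is needed for Il12b transcription in DCs and macrophages, was measured at 458.1, 1039.7 and 1656.8 units in the arrays labelled spleen, against 141.3, 392.7 and 438.5 in those labelled lymph node (difference 1.67 ± 0.56 SE, adjusted p = 0.156 in limma).

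**Figure D3:**
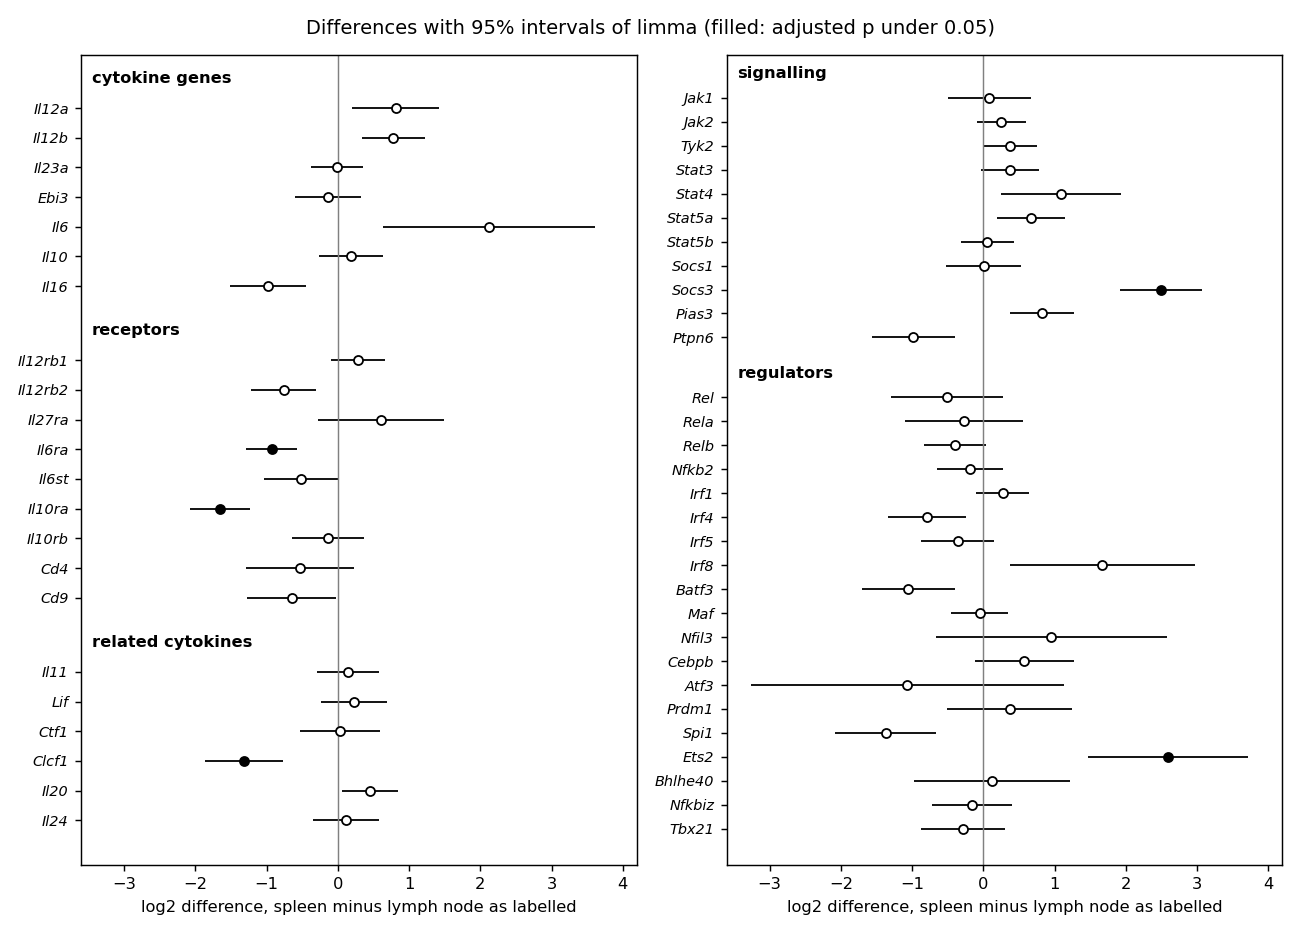
Log2 differences, spleen minus lymph node as labelled, with 95% intervals from limma for the cytokine genes, their receptors, related cytokines, signalling genes and regulators. Filled points passed an adjusted p of 0.05: Il6ra, Il10ra and Clcf1 lie left of 0, and Socs3 and Ets2 lie right of it.

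The arrays numbered 3 stood apart for several of these factors in both groups. Array 3 was the lowest of the arrays labelled spleen for 11 of the 19 factors (57.9%, against 29.8% of all genes) and the lowest of those labelled lymph node for 10 (52.6%, against 36% of all genes). Atf3, a stress-induced repressor, was measured at 1245.9, 2273.9 and 197.6 units in the arrays labelled spleen and at 3409.4, 2455.1 and 612.8 in those labelled lymph node. Nfil3, a factor of DC development, was measured at 298.3, 254.2 and 55.9 units in the arrays labelled spleen and 154.3, 91.7 and 41.0 in those labelled lymph node. In both genes the array numbered 3 was the lowest of its group, as it was in the dimmer Il12b probe set. Among the 7 cytokine genes, array 3 was the lowest labelled spleen for 3, as array 1 was. It was the lowest labelled lymph node for 2, against 3 for array 1. Il6 was low in array 3 of the arrays labelled spleen, and its values in the arrays labelled lymph node were all near background. Atf3 and Nfil3 were picked out here after their values were seen, and no test was made of this pattern.

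**Figure D4:**
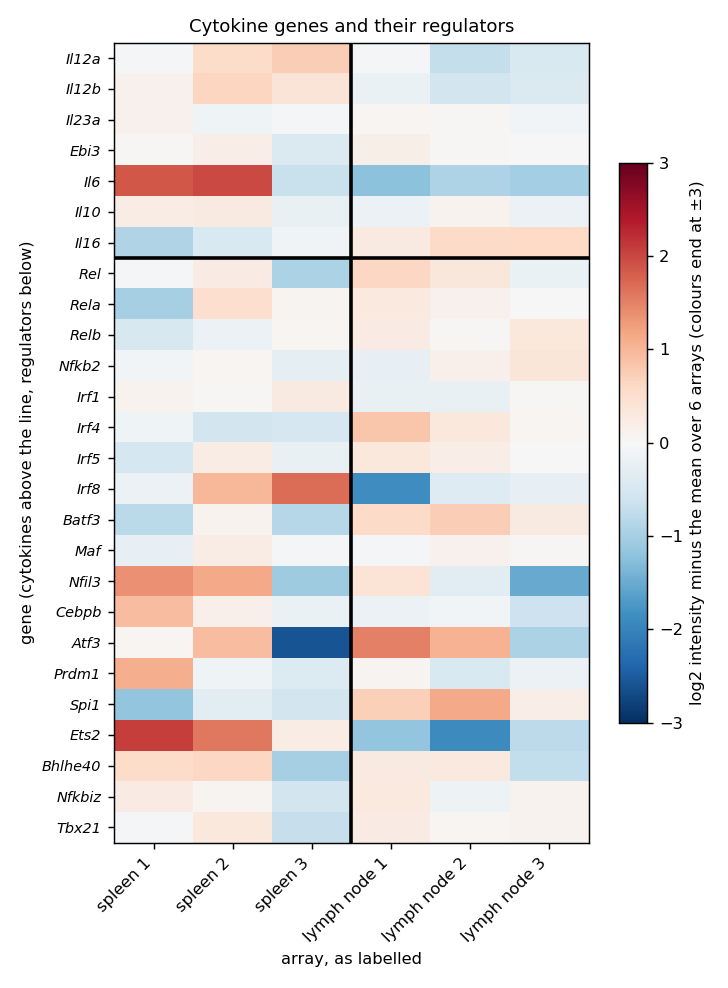
Log2 intensity minus the gene's mean over the 6 arrays for the 7 cytokine genes and the 19 measured factors, with the arrays labelled spleen as the left columns. Il6 and Ets2 are high in arrays 1 and 2 labelled spleen, and Atf3 and Nfil3 are low in the arrays numbered 3 of both groups.

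For the 3 cytokine genes above both background limits, the genes with the most similar pattern were found by Pearson correlation of log2 intensity over the 6 arrays, among 6195 genes above the median level. For Il12b these were Mfhas1 (r = 0.988), Atmin (0.977) and Gm20559 (0.976). For Ebi3 they were Ammecr1 (r = 0.993), Ccdc43 (0.991) and Nars (0.987), and for Il16 Gpr180 (0.996), Cuedc2 (0.995) and Myg1 (0.993). The 6 points fall into 2 groups and all genes share the same arrays, so these values are a description, with no test.

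**Figure D5:**
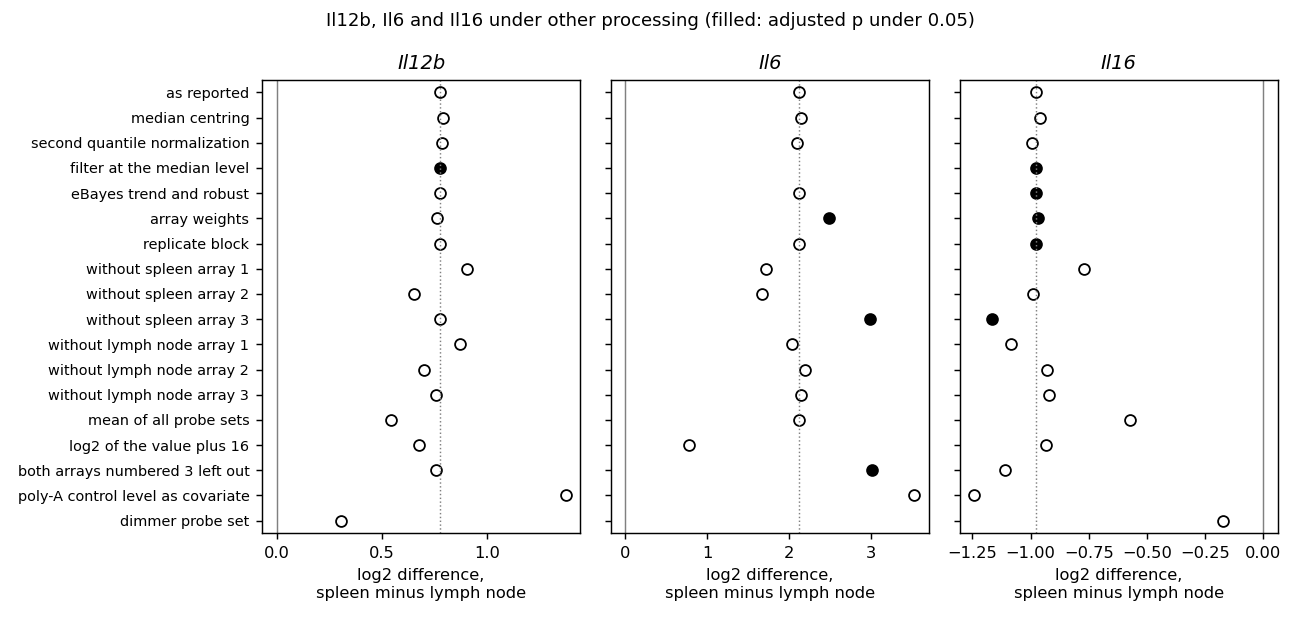
Log2 differences of Il12b, Il6 and Il16, spleen minus lymph node as labelled, as reported (dotted line) and under each other processing; filled points passed an adjusted p of 0.05, and the filter at the median level removed Il6. The signs of the 3 genes hold throughout, while the calls change, and the dimmer probe sets of Il12b and Il16 lie nearest to 0.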

How the data were processed

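Probe set intensity values on a linear scale, normalized by the authors, were deposited as 1 table of 22690 probe sets; RMA and limma are named in the submitters' processing notes, and their versions are not given in the sources used here. As RMA gives log2 values, the deposited ones were made linear again, with any floor unknown. RNA was amplified from 2 ng, per the labels. After 64 control probe sets were set aside, 20380 had 1 symbol, 691 several and 1555 none; 20351 matched RefSeq by Entrez identifier, which changed 0 symbols. Each of 12393 genes was represented by its brightest probe set. Log2 values were compared, spleen minus lymph node, in limma 3.58.1 under R 4.3.3 (lmFit, eBayes, two-sided, Benjamini-Hochberg over all genes, threshold 0.05). The number of arrays limits precision. In simulated data for this comparison with 12393 genes and independent normal noise, 80, 62 and 58 genes were changed by 1, 2 and 3 log2 units. Of these changes 36.25%, 85.5% and 96.6% were recovered. The simulated data gave 144 calls, against 421 in the measured data, and the recovery depends on that setting. Members, lists and motifs were chosen with earlier results of these data known, the motifs also after seeing the promoters and the matches of an earlier motif set, in which kappaB was longer and IRF was included. The genes named are the members, list members past the threshold (or up to 4 with the smallest adjusted p), receptors by partner, and for each member above background the 3 closest patterns.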

Additional observations from a re-analysis of the deposited data

How the results depend on the processing

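Of 12393 genes, 421 passed; the count was 764 with array weights, 63 at a threshold of 0.01, 47 to 475 with 1 array left out, and 0 in limma with the poly-A control level as a covariate (701 at an unadjusted p under 0.05), a setting added after seeing the data. Of the 7 cytokine genes 0 passed; the count was 2 with the filter at the median level (Il12b at 0.78, adjusted p = 0.0458, and Il16 at -0.98, 0.0431), 2 with array weights (Il6 at 2.48, 0.0274, and Il16 at -0.97, 0.0375), 1 with eBayes trend and robust (Il16 at -0.98, 0.0415), and 0 to 2 with 1 array left out. It was 1 without both arrays numbered 3 (Il6 at 3.01, adjusted p = 0.00577), also added after seeing the data. With 1 array left out Il6 lay between 1.66 and 2.99 and Il16 between -1.17 and -0.77. With log2 of the value plus 16 Il6 was at 0.77 and Il12a at 0.44, and with the poly-A controls as a covariate Il6 was at 3.52, Il12a at 1.40 and Il12b at 1.38, with no call in either setting. Il23a changed sign with median centring (0.0045) and ranged from -0.083 to 0.046 with 1 array left out. Ebi3 ranged from -0.27 to 0.048 there, and was 0.44 with the poly-A controls as a covariate and 0.010 without both arrays numbered 3. The filter at the median level removed Il12a, Il23a, Il6 and Il10, whose levels lie under it. Il12a and Il10 kept their sign and did not pass in any of their 16 alternatives each. With the replicate block Il16 was at -0.98 and passed (adjusted p = 0.0430 in limma), and the count was 1. Deviations of same-numbered arrays from their group means correlated at 0.022, 0.24 and 0.16. Those of differently numbered arrays correlated at -0.28 to 0.13. The labels do not say whether the numbers pair the arrays, and this was not tested. With the poly-A controls as a covariate Il10ra (-1.18) and Socs3 (1.44) lost their call (adjusted p = 0.880 in limma). The control level did not overlap between the groups, and the SE of Il10ra was 0.40 there against 0.18 as reported. That setting therefore cannot tell the controls from the label. Values near background limit Il6, Il10, Il23a and Il12a.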
